A study of Saccharomyces cerevisiae with 44 samples.

Results

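The arms of chromosome IV carry origins of replication far from the centromere (CEN) and from the telomeres, and the signal of each one was followed through 10 strains of the budding yeast *Saccharomyces cerevisiae*. The arms were taken as all 50-bp bins of chromosome IV that lie more than 25 kb from its centromere and more than 20 kb from either end, which are 28839 of the 241434 bins of the genome. They hold 12 of the 153 origin peaks of the genome, of which 3 are on the short left arm (405 kb after trimming, positions 20001 to 424800) and 9 on the long right arm (1037 kb, positions 474801 to 1511950). That is 1 peak per 135 kb on the left arm and 1 per 115 kb on the right arm.

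The measurement was QBU, in which replicating DNA takes up the thymidine analogue bromodeoxyuridine (BrdU) and the BrdU-containing DNA is immunoprecipitated (IP) and sequenced beside the unselected genomic DNA (Total). All strains were haploid W303 derivatives made able to incorporate BrdU, were held in G1 with α-factor at 23 °C and were released into S phase in 200 mM hydroxyurea (HU), an inhibitor of nucleotide synthesis that stalls forks near the origins they started from. The labels give 60 min in HU for every strain, while the methods of the study give 90 min for dbf4∆C, so strain and time cannot be told apart in that strain. Beside WT there were 9 mutants. In dbf4∆C the Dbf4 protein lacks its C-terminal end, and dbf4-Zn*1 (C661A and C664A) and dbf4-Zn*2 (H680C) carry substitutions in the zinc finger of that end. The single deletions were fkh1∆ and ctf19∆, the double mutants combined fkh1∆ with dbf4-Zn*1, with dbf4-Zn*2 or with fkh2-dsm, and ctf19∆ fkh1∆ fkh2-dsm is called the triple mutant here. In the study's strain list the BrdU cassette is at leu2 in WT and the strains with dbf4-Zn*1 or dbf4-Zn*2. It is at ura3 in fkh1∆, ctf19∆, fkh1∆ fkh2-dsm and the triple mutant. The marker of fkh1∆ also differs between these groups, and neither difference can be told apart from the genotypes compared. For dbf4∆C the list holds strains with the cassette at leu2 and at ura3, and which of them was read was not settled here. Each strain had 2 replicates, and 2 ChIP-seq libraries each of FLAG-Dbf4 and FLAG-dbf4-aaHH from G1 cells were also read. In the study aaHH is the allele of dbf4-Zn*1 (C661A and C664A), and the FLAG tag is at the N-terminus of Dbf4.

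Origins are loaded with the Mcm2-7 helicase in G1, and firing in S phase requires phosphorylation of the helicase by DDK, the kinase formed by Cdc7 and its regulatory subunit Dbf4. DDK is limiting, so origins that attract it fire early. In this yeast the Forkhead proteins Fkh1 and Fkh2 are known to promote early firing of a large group of origins, many of them on chromosome arms, and the kinetochore protein Ctf19 is known to recruit Dbf4 to centromeres and so to advance the origins next to them. The allele fkh2-dsm carries mutations that remove the origin function of Fkh2 while sparing its other roles.

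Peaks are named here by arm and by distance from the centromere in kb. On the left arm, L42 covered chrIV:407701-408200 between RTK1, a protein kinase gene, and DIA3, L120 covered chrIV:330001-330500 inside YET3, and L237 covered chrIV:212751-213250 between SCM3, the gene of the chaperone that deposits the centromeric histone, and the glucose sensor gene RGT2. On the right arm, R34 covered chrIV:483801-484300 between MLG1 and GCV1, a glycine cleavage gene, R56 covered chrIV:505401-505900 between PST2 and the non-coding SUT053, and R105 covered chrIV:554701-555200 inside VMS1, next to the glycolysis gene TPI1. Further out, R428 covered chrIV:877551-878050 between the retrotransposon genes YDR210W-B and YDR210C-D, R463 covered chrIV:913001-913500 inside CRF1 and next to the histone H2B gene HTB1, and R568 covered chrIV:1017101-1017600 between a tRNA gene and RNH202, a subunit gene of RNase H2. R709 covered chrIV:1158851-1159350 between the hexose transporter genes HXT7 and HXT6, R716 covered chrIV:1166001-1166500 between HXT3 and SVF1, and R1013 covered chrIV:1462201-1462700 inside GIN4, a kinase gene of the bud neck. The gene names are those of a RefSeq table of assembly R64, and the coordinates are those of the deposited bins, whose build is not given in the sources used here. Retrotransposon copies and the near-identical HXT6 and HXT7 can share reads, so the levels of R428 and R709 are less certain than the rest. Members had to exceed 2 times the genome mean in the average IP profile of all libraries, a limit that R1013 passed at 2.38 and L237 at 2.45 times, while the highest maxima left out, at chrIV:566951-567450 and chrIV:513751-514250, reached 2.00 and 1.85 times. L237 and R1013 passed only through the 2 strains with fkh2-dsm: in the average of the other 8 strains they reached 0.934 and 1.05 times, while the remaining 10 peaks stayed above the limit, the lowest of them R56 at 2.04. Their levels in the strains with fkh2-dsm are therefore a description with no test, and counts of higher peaks there are given over the other 10.

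The signal of a peak is the read count of its 500-bp window divided by the count expected from the genome mean of the same library, so a value of 1 is the genome mean. The IP libraries held 281531 to 13959837 bin counts and the Total libraries 435781 to 33840380. In IP the fkh1∆ fkh2-dsm libraries were the shallowest, with the smallest window at 13 counts. In Total the shallowest was replicate 2 of fkh1∆ fkh2-dsm, with the smallest window at 10 counts. Over FKH1 the Total signal was at most 0.0543 in the 10 libraries labelled fkh1∆ and at least 0.719 in the other 10, and over CTF19 it was listed at 0 in the 4 libraries labelled ctf19∆ and at least 0.660 in the other 16. DBF4 itself lies on the right arm, 3.62 kb from R105, and no read of the dbf4∆C Total libraries fell in the 2 bins chrIV:558551-558650 at the end of that gene, where the 18 Total libraries of the other strains had 0.277 to 1.47 times the mean (0 reads allow up to 44.2% and 9.96% of the genome mean in the 2 dbf4∆C replicates, from counting error alone). The point mutations of dbf4-Zn*1, dbf4-Zn*2 and fkh2-dsm cannot be checked from binned counts.

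In WT, 4 peaks of the right arm stood above all others: R105 at 18.7 and 19.0 times the genome mean in the 2 replicates, R709 at 18.6 and 19.0, R716 at 15.4 and 19.3 and R463 at 15.7 and 16.6. These 4 took 55.0% and 54.5% of the summed signal of the 12 windows. A middle group followed, with L42 at 10.7 and 12.0, L120 at 10.4 and 10.9, R34 at 9.46 and 10.6, R568 at 8.90 and 9.09, R428 at 7.10 and 10.3 and R56 at 6.14 and 6.23. The outermost peak of each arm was the lowest, R1013 at 1.84 and 1.59 and L237 at 1.37 and 1.12. The replicates of WT differed by a median of 0.122 on the log2 scale, most at R428, and in 6 of the 11 pairs of neighbours in this order the replicate values overlapped, so that R105 and R709, for example, cannot be ordered. Windows of 2.5 kb to either side of the 12 peaks, 4.16% of the arm bins, held 41.9 ± 0.673% (SD, n = 2) of the arm signal in WT and between 9.33 ± 0.0359% in dbf4∆C and 33.9 ± 1.78% in fkh1∆ among the mutants.

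**Figure D1:**
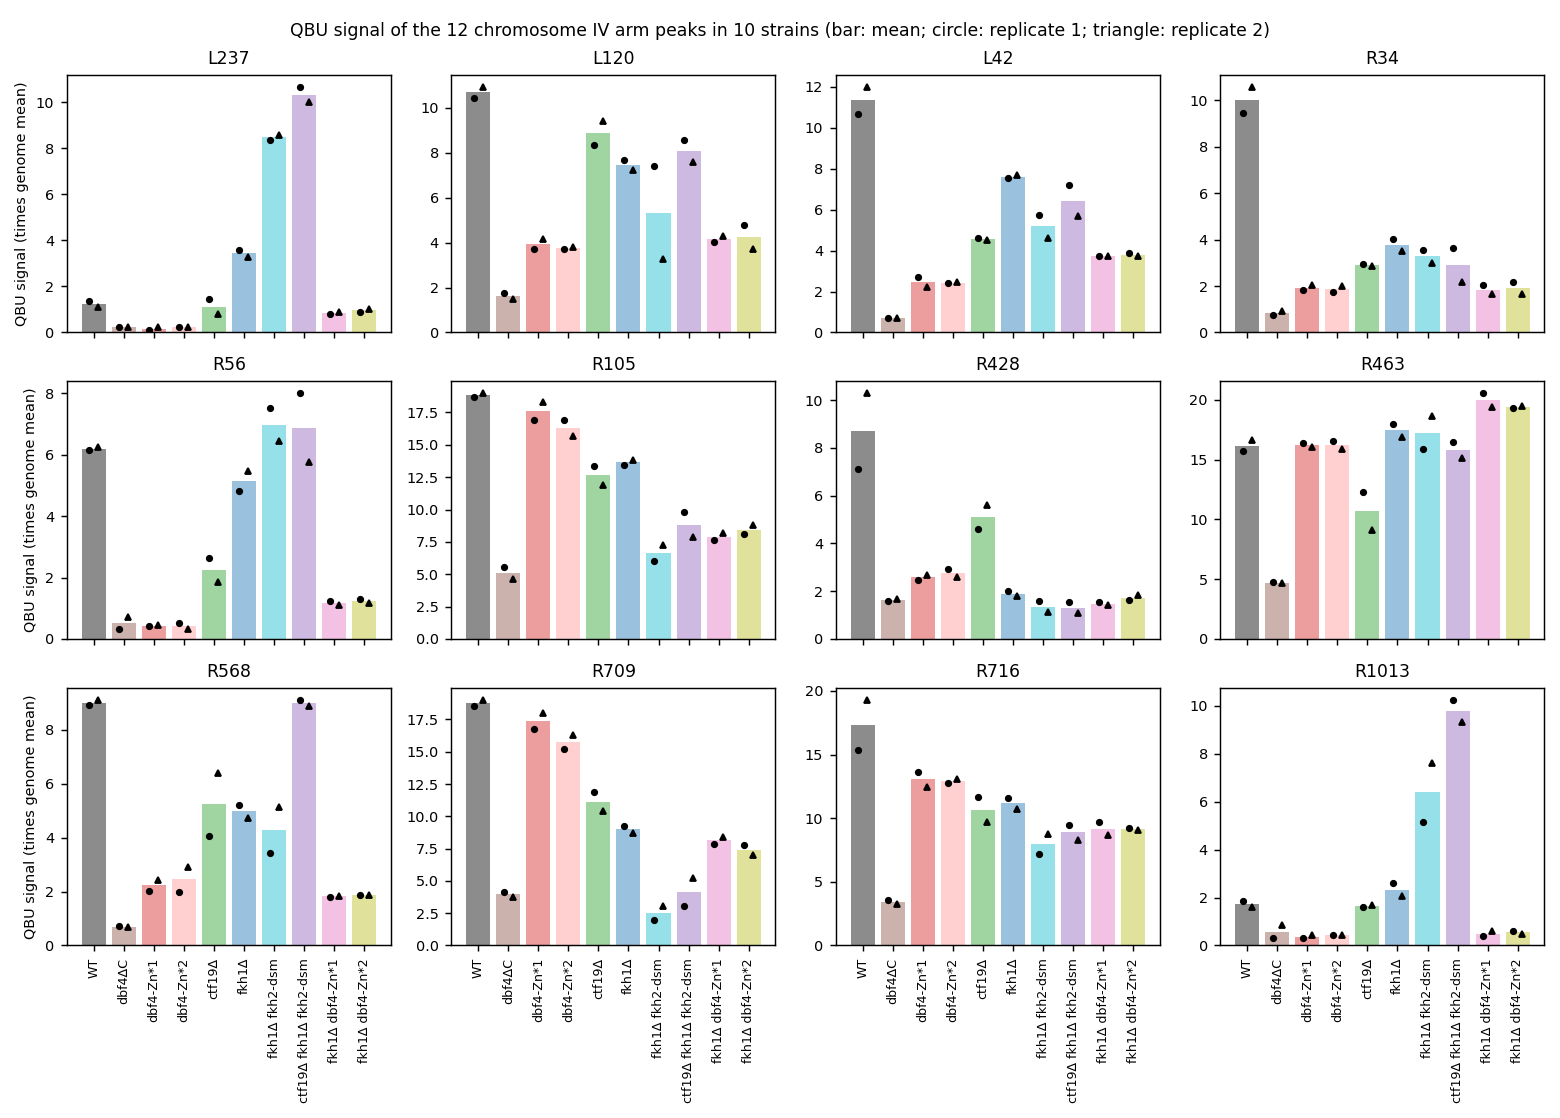
QBU signal (times the genome mean, linear axis from 0) of each of the 12 peaks in the 10 strains; bars are means of 2 replicates, circles replicate 1 and triangles replicate 2. R105, R709, R716 and R463 are the highest in WT, L237 and R1013 have their highest signal in the strains with fkh2-dsm, through which they passed the peak limit, and R463 is the one peak that is as high in fkh1∆ dbf4-Zn*1 and fkh1∆ dbf4-Zn*2 as in WT or higher.

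Each mutant was compared with WT by edgeR's quasi-likelihood test over all 153 origins, with the bin total of each library as its size and Benjamini-Hochberg adjustment. The IP signal of a peak is a share of its library and falls when other parts of the genome take more of the reads. The median log2 fold change over the 153 origins was below 0 in all 9 mutants, from -0.58 in fkh1∆ to -2.72 in dbf4∆C, and TMM factors, which centre the typical origin, moved that median up by 0.71 to 2.51. Values are therefore also given relative to the median origin, and a call that holds with both scalings is named as such. Another scaling, with the size of the Total library of the same replicate, left none of the 12 called in any of the 14 IP contrasts, with at most 2 at an unadjusted p under 0.05 (background 0.14% of the tests over all origins). The ratio of IP to Total reads that enters it differed by 1.02 to 9.22 times between the replicates of a strain. The IP calls below therefore are calls on shares of the IP library, and none of them held with this scaling. R34 was lower with library totals and with TMM factors in 9 of 9 mutants, and R428 in 7 of 9. R716 was lower in 9 of 9 with library totals and in none with TMM factors or DESeq2, and L42 was lower in 9 of 9 with library totals and in 5 with TMM factors. R463 was called in the fewest contrasts, 4 of 9, lower in dbf4∆C and ctf19∆ with library totals only and higher in both fkh1∆ dbf4-Zn* strains with both scalings.

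dbf4∆C lowered the signal of all 12 arm peaks, where 96.1% of the 153 origins were called lower and 1.96% higher. The log2 fold change ranged from -3.95 at L42 to -1.60 at R1013, with a median of -2.38 against -2.72 over all origins. L42 had 0.729 and 0.728 times the genome mean, R34 0.763 and 0.927 and R56 0.326 and 0.728, all below the mean of the genome. The 4 highest peaks of WT remained the highest of the 12 windows, R105 at 5.54 and 4.61, R463 at 4.79 and 4.65, R709 at 4.17 and 3.74 and R716 at 3.53 and 3.28 (log2 fold changes of -2.34 to -1.77). With TMM factors 4 of the 12 were lower, L42, R34, R56 and R568 (background 39.9%), while R105, R463 and R1013 turned higher, with log2 fold changes of 0.61, 0.74 and 0.91, and R709 and R716 had 0.26 and 0.18, not called (background 22.2%). R1013 had only 0.300 and 0.844 times the genome mean here (35 and 102 bin counts), the widest replicate difference of the 12 in this strain (1.49 on the log2 scale). Its change with library totals ran from -2.54 to -1.05 on leaving out 1 replicate.

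In the zinc finger mutants 3 of the 4 highest peaks of the right arm were not called, and the other 9 arm peaks were lower with library totals, of which R716 was higher with TMM factors. In dbf4-Zn*1 9 of 12 peaks were lower and none higher (background 77.1% lower and 3.27% higher), and in dbf4-Zn*2 9 and none (background 81% and 3.27%). R463 was not called in either, at 16.4 and 16.1 in dbf4-Zn*1 (log2 fold change 0.0078, SE 0.12), with 16.6 and 15.9 in dbf4-Zn*2 (0.0082, SE 0.12). R105 had 16.9 and 18.3 in dbf4-Zn*1, with 16.9 and 15.7 in dbf4-Zn*2, and R709 had 16.8 and 18.0 and then 15.2 and 16.3. Neither was called, with log2 fold changes between -0.25 (SE 0.16) and -0.10 (SE 0.13). R716, 7.15 kb from R709, had 13.7 and 12.4 in dbf4-Zn*1, with 12.8 and 13.1 in dbf4-Zn*2, called lower with library totals (log2 fold changes -0.40 and -0.41) and higher with TMM factors (0.57 and 0.56). These 4 peaks held 82.4% and 81.6% of the signal of the 12 windows in dbf4-Zn*1. With TMM factors all 4 were higher than in WT in both mutants (background 27.5% and 27.5% higher), and the other 8 were lower (background 41.8% and 43.1% lower with both scalings).

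The largest fall in both zinc finger mutants was at R56, from 6.14 and 6.23 in WT to 0.420 and 0.446 in dbf4-Zn*1 (log2 fold change -3.84, SE 0.30, adjusted p = 2.9e-12) and 0.520 and 0.338 in dbf4-Zn*2 (log2 fold change -3.75, SE 0.29, adjusted p = 2.6e-12). Relative to the median origin R56 fell by 2.63 and 2.54. The other peaks within 60 kb of the centromere fell too, L42 to 2.70 and 2.20 in dbf4-Zn*1, with 2.40 and 2.46 in dbf4-Zn*2, and R34 to 1.82 and 2.03 in dbf4-Zn*1, with 1.73 and 1.99 in dbf4-Zn*2. Their replicates do not overlap those of WT. The outermost peaks, already low in WT, were lower still. L237 had 0.114 and 0.231 in dbf4-Zn*1, with 0.219 and 0.225 in dbf4-Zn*2, and R1013 had 0.313 and 0.431 in dbf4-Zn*1, with 0.441 and 0.434 in dbf4-Zn*2. Between the mutants none of the 12 peaks was called by edgeR (background 0% and 0%), by DESeq2 or with TMM factors, with 0 at an unadjusted p under 0.05 and log2 fold changes (dbf4-Zn*2 against dbf4-Zn*1) from -0.14 (SE 0.16) at R709 to 0.50 (SE 0.39) at L237.

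In ctf19∆ the largest falls were at the 3 arm peaks nearest to the centromere. R34 fell from 9.46 and 10.6 to 2.95 and 2.85 (log2 fold change -1.78, SE 0.23, adjusted p = 1.3e-07), R56 to 2.64 and 1.87 (log2 fold change -1.39, SE 0.26, adjusted p = 3.7e-05) and L42 to 4.61 and 4.52 (log2 fold change -1.30, SE 0.19, adjusted p = 7.3e-07). The replicates of these 3 peaks lay below those of WT without overlap. The 2 outer peaks of the left arm, L120 at 8.33 and 9.39 and L237 at 1.46 and 0.787, and R1013 at 1.59 and 1.67 were not called. In all, 9 of 12 peaks were lower and none higher (background 75.2% and 1.31%), 2 of them, L42 and R34, with TMM factors as well (background 20.9%). The 3 peaks at 25 to 60 kb from the centromere had a median log2 fold change of -1.39 in ctf19∆ and the 9 further out -0.57, where the 15 origins of the other chromosomes at 25 to 60 kb had -0.92 and the 89 beyond 60 kb -0.66. In dbf4-Zn*1 the 3 and the 9 peaks had -2.38 and -1.45, and on the other chromosomes the order was the opposite, -0.76 at 25 to 60 kb and -1.03 beyond.

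**Figure D2:**
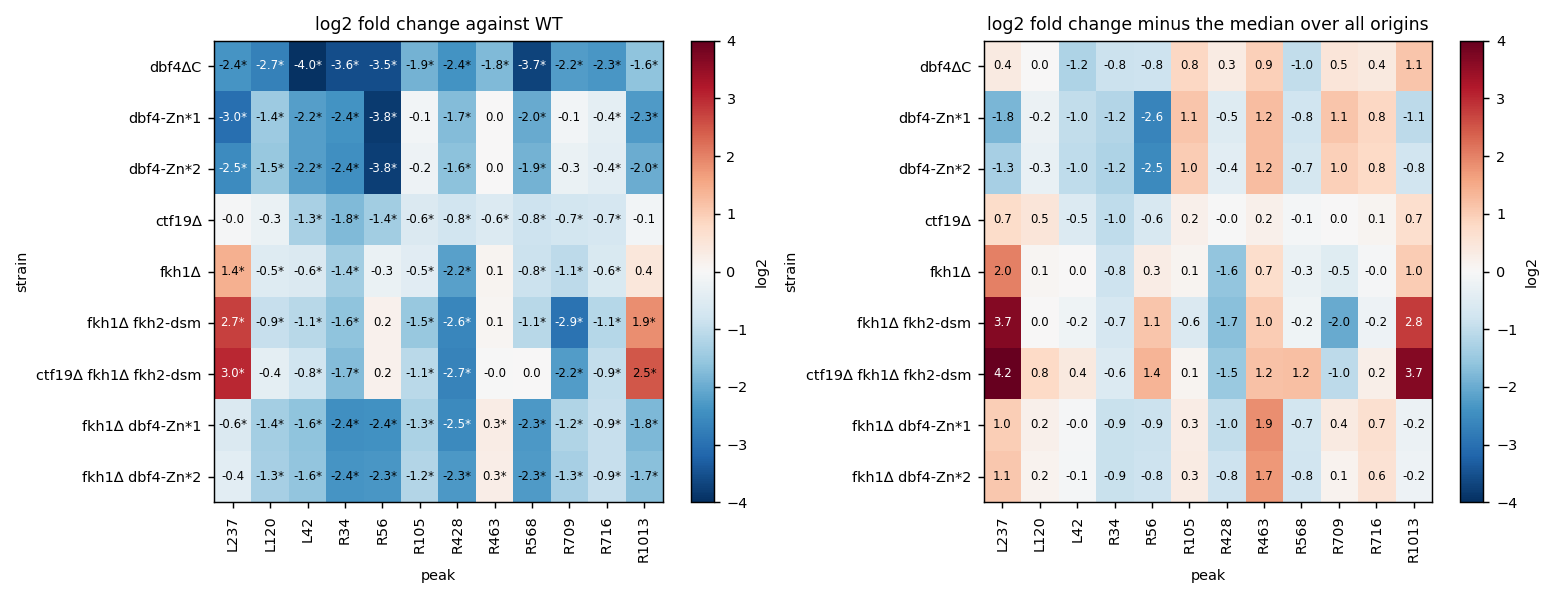
Log2 fold change against WT of the 12 peaks (columns) in the 9 mutants (rows), on the left as fitted with library totals (asterisk: edgeR adjusted p under 0.05) and on the right after subtracting the median over the 153 origins. R34 lies below the median origin in every mutant, and L237 and R1013 lie furthest above it in the strains with fkh2-dsm, through which they passed the peak limit.

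Loss of Fkh1 lowered most of the arm peaks with library totals. In fkh1∆ 8 of 12 peaks were lower (background 63.4%). None of the 10 peaks that did not depend on the strains with fkh2-dsm was higher (background 3.92%). L237, the lowest peak of WT, went from 1.37 and 1.12 to 3.60 and 3.27 (log2 fold change 1.43, SE 0.25). That is a description with no test, since strains that also lack FKH1 brought L237 over the peak limit. The largest fall was at R428, from 7.10 and 10.3 to 2.01 and 1.80 (log2 fold change -2.16, SE 0.22, adjusted p = 2.1e-09), and R34 fell to 4.03 and 3.49 (log2 fold change -1.40, SE 0.22, adjusted p = 3.1e-06). Both falls also held with TMM factors, and none of the 10 was higher with both scalings (background 22.2% lower and 3.92% higher with both). R709 fell to 9.25 and 8.74 (log2 fold change -1.06, or -0.48 relative to the median origin), and R463 at 18.0 and 16.9 was the highest of the 12 in both replicates.

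With fkh2-dsm added, R709 fell further, and the outermost peaks had their highest levels. In fkh1∆ fkh2-dsm 8 of 12 peaks were lower (background 62.1%) and in the triple mutant 6 (background 74.5%), while none of the 10 peaks that did not depend on these strains was higher (background 11.1% and 11.1%). The background of higher calls here and below keeps any origins that passed through these strains, L237 and R1013 among them. It is therefore not a like measure for the 10. With TMM factors as well, 4 were lower in fkh1∆ fkh2-dsm (background 36.6%) and 3 in the triple mutant (background 45.8%), and again none of the 10 was higher with both (background 11.1% and 11.1%). L237 had 8.38 and 8.58 in fkh1∆ fkh2-dsm (log2 fold change 2.73 against WT, SE 0.27) and 10.7 and 10.0 in the triple mutant (3.02, SE 0.26). By its mean it ranked second of the 12 windows in both strains, with replicates that overlapped those of R716 in the first and of R1013 in the second, against the lowest mean in WT. R1013, at the far end of the long arm, had 1.84 and 1.59 in WT, 5.14 and 7.63 in fkh1∆ fkh2-dsm (log2 fold change 1.85, SE 0.33) and 10.3 and 9.33 in the triple mutant (2.49, SE 0.31). These values of L237 and R1013 come from the libraries that brought both over the peak limit.

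R709 fell from 18.6 and 19.0 in WT to 2.01 and 3.09 in fkh1∆ fkh2-dsm (log2 fold change -2.94, SE 0.22, adjusted p = 2.3e-12) and to 3.05 and 5.25 in the triple mutant (log2 fold change -2.23, SE 0.19, adjusted p = 7.9e-12). Its neighbour R716 had 7.20 and 8.75 in fkh1∆ fkh2-dsm and 9.44 and 8.31 in the triple mutant. In fkh1∆ fkh2-dsm the log2 fold change relative to the median origin was -0.19 for R716 against -2.00 for R709. R428 had 1.59 and 1.11 in fkh1∆ fkh2-dsm (log2 fold change -2.62, SE 0.28, adjusted p = 2.4e-09) and 1.53 and 1.10 in the triple mutant (log2 fold change -2.67, SE 0.25, adjusted p = 9.4e-11), the lowest mean of the 12 in both strains. R105, one of the 4 highest peaks of WT, had 6.02 and 7.29 in fkh1∆ fkh2-dsm and 9.79 and 7.84 in the triple mutant, and its fall was called with both scalings in the first. R56, at 7.51 and 6.43 in fkh1∆ fkh2-dsm and 8.00 and 5.76 in the triple mutant, was not called with library totals and was higher with TMM factors, by 1.22 and 1.14 on the log2 scale. Against fkh1∆ alone, fkh1∆ fkh2-dsm had R709 (-1.88) and R105 (-1.05) lower with both scalings (background 21.6%), among 4 lower in all (background 29.4%), and none of the 10 peaks was higher (background 11.8%, or 11.8% with both scalings).

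L42 and R56, which were low in ctf19∆, were higher when FKH1 and the Fkh2 function were also removed. Against ctf19∆, the triple mutant had 4 of the 10 peaks higher, R56, R568, R463 and L42, and 3 of 12 lower (background 28.1% and 39.9%), all 7 with TMM factors as well (background 28.1% and 35.3%). L237 and R1013, which the background of higher calls includes, differed by 3.06 and 2.60 on the log2 scale, through the strain that brought them over the peak limit. R56 rose from 2.64 and 1.87 to 8.00 and 5.76 (log2 fold change 1.56, SE 0.27, adjusted p = 9.8e-06), R568 from 4.08 and 6.39 to 9.11 and 8.90 (log2 fold change 0.84, SE 0.23, adjusted p = 0.0018) and L42 from 4.61 and 4.52 to 7.19 and 5.68 (log2 fold change 0.50, SE 0.20, adjusted p = 0.025), where the L42 replicates stayed below those of WT. R34 was not called, at 2.95 and 2.85 in ctf19∆ and 3.66 and 2.16 in the triple mutant.

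With FKH1 deleted in the zinc finger mutants, R105 and R709 fell and R463 was the highest of the 12 windows. In fkh1∆ dbf4-Zn*1 11 of 12 peaks were lower than in WT and 1 higher (background 84.3% and 5.23%), and in fkh1∆ dbf4-Zn*2 10 and 1 (background 83.7% and 7.19%). The higher one was R463 in both, at 20.5 and 19.4 in fkh1∆ dbf4-Zn*1 (log2 fold change 0.31, SE 0.11, adjusted p = 0.014) and 19.3 and 19.5 in fkh1∆ dbf4-Zn*2 (log2 fold change 0.26, SE 0.11, adjusted p = 0.031). With library totals this small rise was lost on leaving out replicate 1 of WT, replicate 1 of either double mutant or replicate 2 of fkh1∆ dbf4-Zn*2. Relative to the median origin it was 1.87 and 1.75. Relative to the Total signal of the same window it was -0.41 and -0.33, the opposite direction. R34, R56, R428 and R568 were lower with TMM factors as well in both strains, and L42 in fkh1∆ dbf4-Zn*2 (background 43.1% and 39.9%). With TMM factors R463 and R716 of the 10 peaks were higher in each (background 30.1% and 32.7%). L237 also lay higher there, a description with no test. The fall of R105 against WT, at -1.25 and -1.16 with library totals, was 0.0080 and 0.051 with TMM factors.

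Against the single zinc finger mutants, 4 peaks were higher and 4 lower for each allele (background 30.1% and 35.3% for dbf4-Zn*1, 29.4% and 34.6% for dbf4-Zn*2). R105 fell from 16.9 and 18.3 to 7.64 and 8.18 (log2 fold change -1.15, SE 0.13, adjusted p = 2.1e-08) and from 16.9 and 15.7 to 8.10 and 8.77 (log2 fold change -0.95, SE 0.13, adjusted p = 4.1e-07). R709 fell from 16.8 and 18.0 to 7.85 and 8.42 (log2 fold change -1.09) and from 15.2 and 16.3 to 7.80 and 7.02 (-1.09), and both calls held with TMM factors for both alleles (background 28.1% and 27.5% lower with both). R463, R56 and L42 rose with both scalings (background 30.1% and 29.4% higher with both). R56 rose by 1.43 and 1.43 and L42 by 0.59 and 0.65 on the log2 scale. The rise of R463 was small, 0.26 to 0.34 and 0.23 to 0.29 on leaving out 1 replicate. L237 differed by 2.46 and 2.11, a description with no test, since strains that also lack FKH1 brought it over the peak limit. The dbf4-Zn*1 replicates held only 16 and 15 bin counts at L237 and 59 and 29 at R56. Those of dbf4-Zn*2 held 56 and 14 at L237 and 133 and 21 at R56. R56 reached 1.23 and 1.09 in fkh1∆ dbf4-Zn*1 and 1.28 and 1.18 in fkh1∆ dbf4-Zn*2, still below the 6.14 and 6.23 of WT. L237 reached 0.819 and 0.892 in fkh1∆ dbf4-Zn*1 and 0.893 and 1.02 in fkh1∆ dbf4-Zn*2, and L42 3.72 and 3.72 and 3.86 and 3.75. R428 had 1.55 and 1.42 in fkh1∆ dbf4-Zn*1 and 1.61 and 1.85 in fkh1∆ dbf4-Zn*2. R34 had 2.05 and 1.65 in fkh1∆ dbf4-Zn*1 and 2.19 and 1.68 in fkh1∆ dbf4-Zn*2 and was not called against the single mutants.

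The fkh1∆ effect in the zinc finger mutants differed from that in WT at 5 of 12 peaks by edgeR's interaction test, called with both scalings, L42, R34, R56, R105 and R428 (background 27.5% for dbf4-Zn*1 and 29.4% for dbf4-Zn*2). The effect of fkh1∆ fkh2-dsm differed between ctf19∆ and WT backgrounds at 2 of 12, L42 and R568 (background 13.7%).

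L120 and R568 were the remaining peaks of the middle group. L120 ranged over the 20 IP libraries from 1.51 in dbf4∆C to 10.9 in WT and was lower in 7 of 9 mutants with library totals, 2 of them with TMM factors. R568 ranged from 0.670 in dbf4∆C to 9.11 in the triple mutant and was lower in 8 of 9, 5 of them with TMM factors.

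R463 also differed in breadth between the strains. In WT the IP signal of R463 was 15.7 ± 0.859 times the mean over the central 2 kb (SD, n = 2) and 0.636 ± 0.0430 at 10 kb on either side. In dbf4-Zn*1 it was 17.4 ± 0.252 and 2.72 ± 0.344, in fkh1∆ 15.7 ± 1.18 and 0.695 ± 0.0240, and in fkh1∆ dbf4-Zn*1 18.3 ± 0.145 and 7.81 ± 0.0545. At 50% of its height above the median bin, after 1-kb smoothing, the peak of WT was 3450 ± 495 bp wide, that of fkh1∆ 5600 ± 141 bp, that of dbf4-Zn*1 10425 ± 247 bp, that of dbf4-Zn*2 8825 ± 247 bp, that of fkh1∆ dbf4-Zn*1 15975 ± 955 bp and that of fkh1∆ dbf4-Zn*2 14675 ± 35 bp (SD, n = 2). The replicate widths of these 6 strains did not overlap. Without smoothing they partly overlapped, with 2700 and 2100 bp in the replicates of WT, 4900 and 2050 in fkh1∆, 5450 and 4500 in dbf4-Zn*1, 4750 and 3300 for dbf4-Zn*2, 13400 and 14350 in fkh1∆ dbf4-Zn*1 and 13300 and 10800 for fkh1∆ dbf4-Zn*2. There WT overlapped fkh1∆, and dbf4-Zn*1 overlapped dbf4-Zn*2. With smoothing, R463 was 5600 and 5300 bp wide in ctf19∆ and 5400 and 6650 bp in the triple mutant. Both overlapped the 5500 and 5700 bp of fkh1∆, and fkh1∆ fkh2-dsm had 4800 and 4450 bp. In dbf4∆C the signal around R463 was close to level, 4.73 ± 0.0722 at the centre and 3.33 ± 0.197 at 20 kb, where WT had 0.146 ± 0.0262. R105 was 8025 ± 1803 bp wide in dbf4-Zn*1 and 2700 ± 283 bp in WT with smoothing, but without it the replicates overlapped, at 2550 and 1250 bp and 1300 and 1250 bp. Its signal 10 kb out was 2.19 ± 0.118 in dbf4-Zn*1 and 1.13 ± 0.00497 in fkh1∆ dbf4-Zn*1 against 0.913 ± 0.00533 in WT. No test was run on widths.

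**Figure D3:**
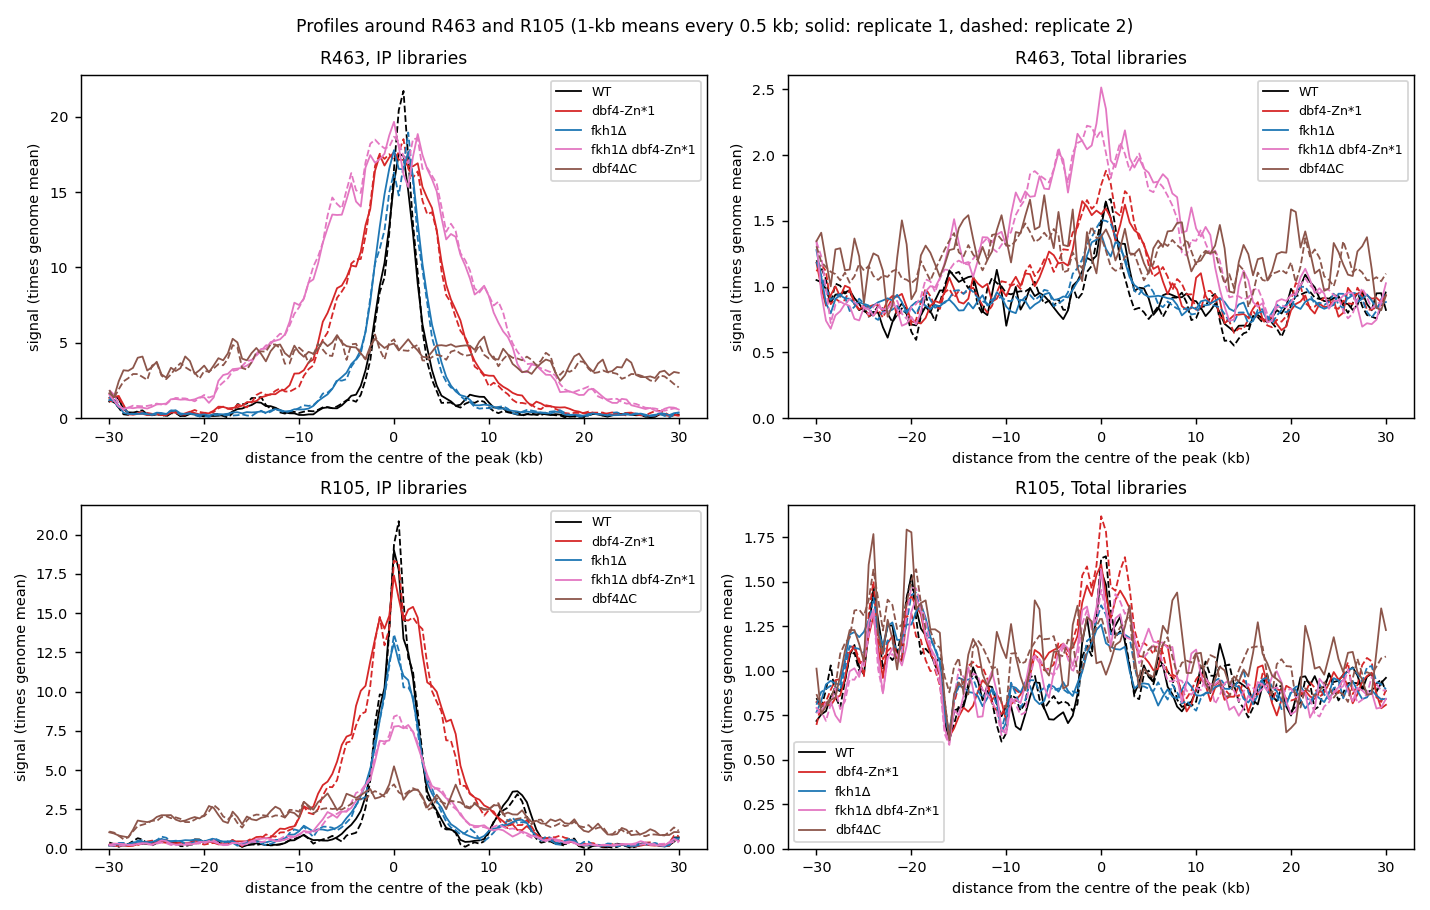
IP (left) and Total (right) signal in times the genome mean against distance in kb from the centre of R463 (top) and R105 (bottom), as 1-kb means every 0.5 kb; solid lines are replicate 1 and dashed lines replicate 2. The R463 peak widens from WT over dbf4-Zn*1 to fkh1∆ dbf4-Zn*1, in which Total is near 2 over the central 10 kb. The IP signal of dbf4∆C is low and broad and falls with distance from both peaks.

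The Total libraries, which read DNA copy number rather than BrdU, showed few called changes at the peaks apart from a rise at R463. In WT the 12 Total values lay between 0.733 and 1.87 in replicate 2 and between 0.931 and 1.48 in replicate 1. R463 had 1.48 and 1.46 in WT, 1.41 and 1.53 in fkh1∆, 1.48 and 1.80 in dbf4-Zn*1, with 1.57 and 1.69 in dbf4-Zn*2. It had 2.72 and 2.22 in fkh1∆ dbf4-Zn*1 (log2 fold change 0.75, SE 0.14, adjusted p = 5.9e-05 against WT) and 2.26 and 2.25 in fkh1∆ dbf4-Zn*2 (log2 fold change 0.62, SE 0.14, adjusted p = 7.8e-04), the highest Total value of the 12 in all 4 of these libraries. Against the single mutants R463 was higher by 0.58 (adjusted p = 0.0030) and 0.47 (adjusted p = 0.011) on the log2 scale, and these calls (background 7.84% and 15% higher) were lost on leaving out replicate 1 of dbf4-Zn*1 or fkh1∆ dbf4-Zn*1, or any replicate of dbf4-Zn*2 or fkh1∆ dbf4-Zn*2. R463 was the 1 arm peak called higher in Total of each double mutant (background 8.5% and 10.5% higher). The rise in Total extended beyond the window, with 2.03 ± 0.0202 over the central 10 kb in fkh1∆ dbf4-Zn*1 and 2.07 ± 0.0320 in fkh1∆ dbf4-Zn*2 against 1.11 ± 0.0365 in WT (SD, n = 2).

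Lower Total values were called at R428 in dbf4-Zn*1, dbf4-Zn*2, fkh1∆ and fkh1∆ dbf4-Zn*1, from 1.39 and 1.87 in WT to 1.04 and 1.18 in fkh1∆ for example, at R568 in 4 strains, at L120, L42 and R1013 in dbf4∆C and at R716 in fkh1∆ fkh2-dsm. The R716 window held only 14 bin counts in replicate 2 of fkh1∆ fkh2-dsm. A higher value was called at R56 in the triple mutant (1.38 and 2.02 against 1.12 and 1.07 in WT, background 1.31% higher). L237 had 1.34 and 1.35 there against 0.931 and 0.733 in WT. That is a description with no test, since this strain helped to bring L237 over the peak limit. The background is 2 of 153 origins, which are R56 and L237 themselves. Over the 9 mutants 0 to 3 of the 12 arm peaks were called lower in Total, while the background was 35.3% in dbf4∆C, 20.3% in fkh1∆ fkh2-dsm, 20.9% in fkh1∆, 17% in dbf4-Zn*2, 16.3% in the triple mutant, 14.4% in dbf4-Zn*1, 13.1% in ctf19∆, and 17% and 14.4% in the double mutants with dbf4-Zn*1 and dbf4-Zn*2. With TMM factors 1 lower call was left in each of the double mutants and 0 in the others. Without replicate 2 of WT the lower calls numbered 0 in every strain but dbf4∆C, where 2 were left, and 0 were left there without replicate 2 of dbf4∆C. In ctf19∆ no arm peak was called in Total by edgeR, with 1 at an unadjusted p under 0.05 and 1 called by DESeq2.

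The left arm had less IP signal per bin than the right in all strains, and the difference between the arms changed with the genotype. The mean IP signal per bin in WT was 0.488 and 0.495 on the left arm and 0.712 and 0.722 on the right, a left to right ratio of 0.686 ± 0.000545 (SD, n = 2). The ratio fell to 0.344 ± 0.0313 in dbf4-Zn*1 and 0.368 ± 0.0111 in dbf4-Zn*2, log2 changes of -1.0 and -0.90 by limma (SE 0.055, adjusted p = 5.8e-13 and 3.7e-12 over the 16 chromosomes). It rose in the strains with fkh2-dsm, to 0.858 ± 0.0291 in fkh1∆ fkh2-dsm (log2 change 0.32, adjusted p = 1.5e-05) and 0.883 ± 0.0213 in the triple mutant (0.36, adjusted p = 3.1e-06), and fell less in fkh1∆ dbf4-Zn*1 (-0.57), fkh1∆ dbf4-Zn*2 (-0.49) and dbf4∆C (-0.56). In ctf19∆ (0.11, adjusted p = 0.10) and fkh1∆ (0.10, adjusted p = 0.15) it was not called. A changed ratio was common among chromosomes, with 37.5% of the 16 called in fkh1∆, 50% in ctf19∆, 87.5% in dbf4-Zn*2 and 93.8% in each other strain, and chromosome IV ranked 4 from the lowest in both zinc finger mutants.

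Both arms moved in the zinc finger mutants. In dbf4-Zn*1 the left arm total fell by 0.65 and the right rose by 0.35 on the log2 scale, and in dbf4-Zn*2 the left fell by 0.59 and the right rose by 0.31 (edgeR over 32 arms, background 93.8% and 90.6% called, largest adjusted p = 4.4e-10). In the triple mutant both rose, the left by 0.94 and the right by 0.57 (background 93.8%). With the median 1-kb bin of each arm in place of the mean, the log2 change was 0.0061 for dbf4-Zn*1, -0.085 for dbf4-Zn*2, -0.021 in fkh1∆ fkh2-dsm and 0.048 in the triple mutant, none of them called. In Total the ratio was 0.953 ± 0.00189 in WT and 0.939 ± 0.0112 in dbf4-Zn*1, which was not called. It was called lower in dbf4∆C (log2 change -0.070, adjusted p = 6.1e-04), fkh1∆ dbf4-Zn*1 (log2 change -0.039, adjusted p = 0.034) and fkh1∆ dbf4-Zn*2 (log2 change -0.040, adjusted p = 0.031), by much less than in IP (limma, background 81.2%, 68.8% and 68.8% of the 16 chromosomes).

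**Figure D4:**
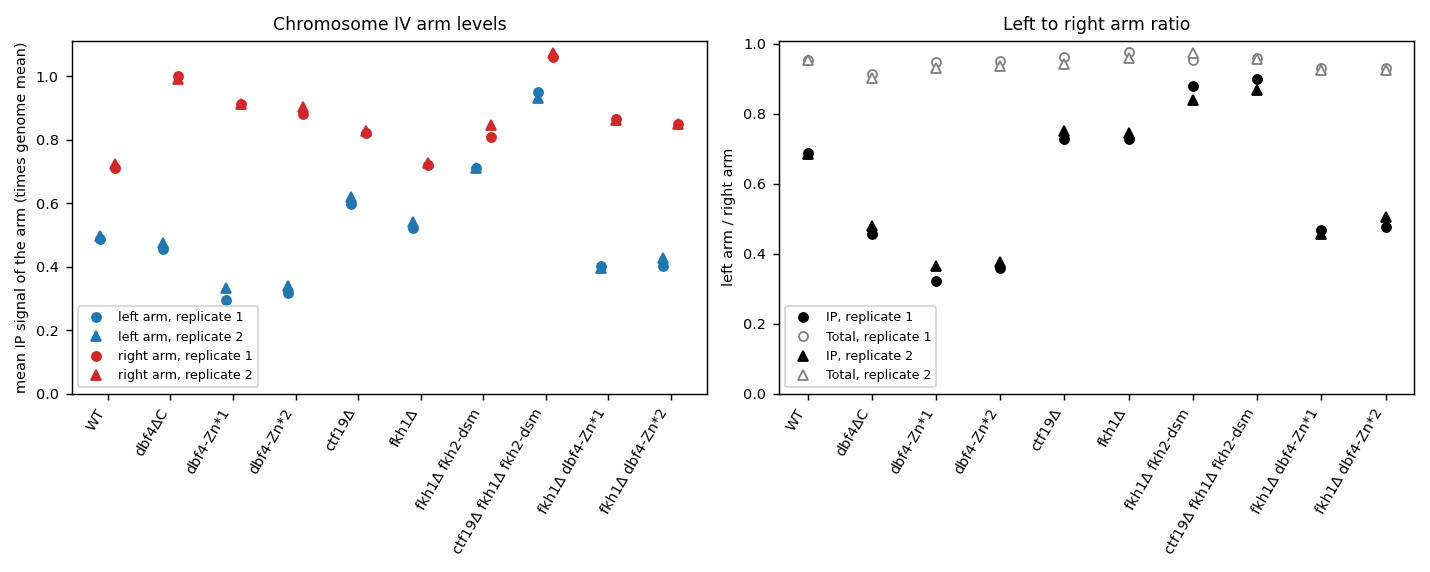
Left panel, mean IP signal per bin (times the genome mean) of the trimmed left and right arms in each library; right panel, left to right ratio in IP (filled) and Total (open). The IP ratio is lowest in dbf4-Zn*1 and dbf4-Zn*2 and highest in the 2 strains with fkh2-dsm, while the Total ratio stays between 0.90 and 0.98.

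Peaks were also called on the mean IP profile of each strain alone, by the same rule, as a description with no test. WT had 17 arm peaks, 10 at the 12 above (all but L237 and R1013) and 7 elsewhere, ctf19∆ 16 and fkh1∆ 12, all at the 12. dbf4-Zn*1 and dbf4-Zn*2 had 9 each, of which 2 were on the left arm (L120 and L42), and dbf4∆C had 11, none on the left arm. fkh1∆ dbf4-Zn*1 had 11 and fkh1∆ dbf4-Zn*2 10. fkh1∆ fkh2-dsm had 26 and the triple mutant 34, which are 13.4% and 14.8% of their peaks in the whole genome against 9.66% in WT. At 11 loci outside the 12, 3 on the left arm and 8 on the right, a peak was called in both of these strains and in no other. The highest of these in the 2 strains were R997, at chrIV:1446801-1447300, with 6.07 and 4.55 times the mean in fkh1∆ fkh2-dsm, 5.78 and 4.82 in the triple mutant and 0.130 and 0.472 in WT, and R791, at chrIV:1240101-1240600, with 5.30 and 5.92 in fkh1∆ fkh2-dsm, 5.74 and 5.02 in the triple mutant and 0.714 and 0.422 in WT. Both were chosen after their values were seen. R709 had no peak of its own in these 2 strains. The fkh1∆ fkh2-dsm IP libraries were the shallowest, and of the loci called there outside the 12, 8 of 15 reached 2 times the mean in both replicates, against 17 of 23 in the triple mutant.

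**Figure D5:**
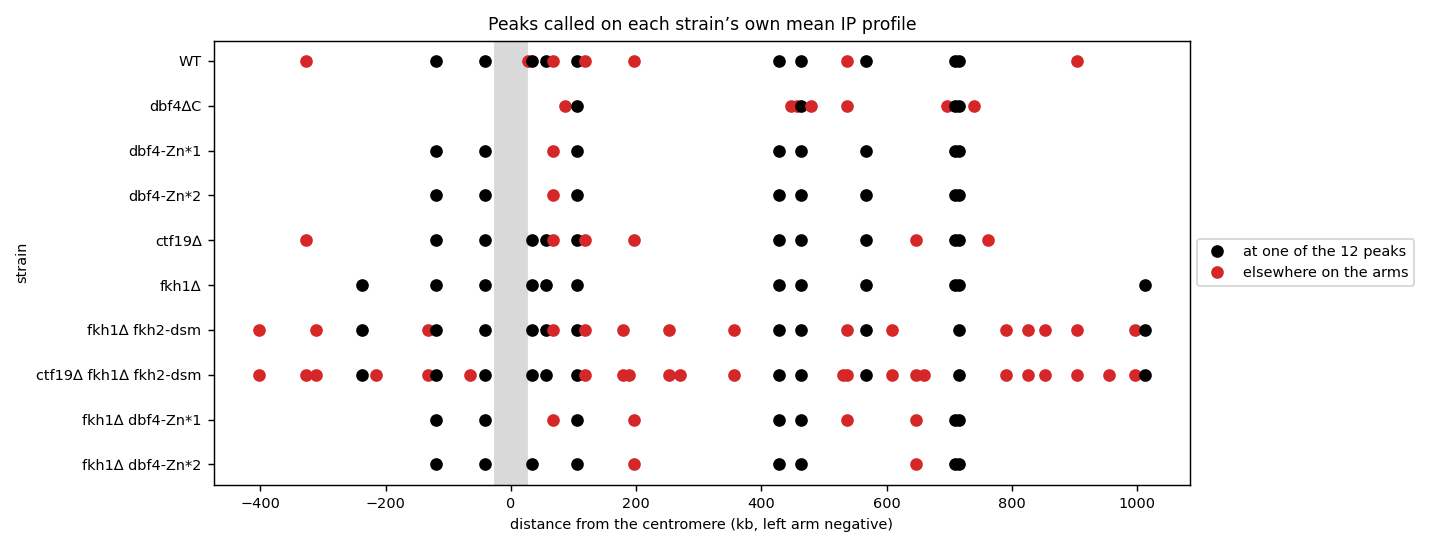
Peaks on the chromosome IV arms called on each strain's own mean IP profile, by distance from the centromere in kb (left arm negative, grey band left out); black points are at one of the 12 peaks and red points elsewhere. The 2 strains with fkh2-dsm have 26 and 34 peaks, and dbf4∆C has none on the left arm.

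FLAG ChIP-seq of G1 cells had levels from 0.183 to 1.61 times the mean at the 12 windows over the 4 libraries. The lowest was L42 in replicate 2 of FLAG-Dbf4, the library with the fewest reads outside the ribosomal DNA, against 0.693 in replicate 1. Relative to the mean outside the ribosomal DNA, which took 51.2% to 67.8% of the reads, the 12 windows had medians of 0.968 and 0.822 in FLAG-Dbf4 and 1.01 and 0.916 in FLAG-dbf4-aaHH. The highest was R568, at 1.47 and 1.43 in FLAG-Dbf4 and 1.61 and 1.54 in FLAG-dbf4-aaHH. None of the 12 was called between the genotypes, with edgeR or with TMM factors (background 0%). R56 was the 1 peak with an unadjusted p under 0.05, at 0.640 and 0.426 in FLAG-Dbf4 and 0.788 and 0.916 in FLAG-dbf4-aaHH (log2 fold change 0.63, SE 0.27, adjusted p = 0.42). The genotypes are those of the labels, where the FLAG-Dbf4 libraries carry the strain name EAy2 and the FLAG-dbf4-aaHH libraries EAy1. The strain list and a figure legend of the study give these names the other way round, while its construction text gives both names to isolates with the Zn*1 change. An exchange would turn the sign of each ChIP-seq fold change. The 1 kb around the 16 centromeres had a mean of 2.56 and 2.17 times in the replicates labelled FLAG-Dbf4 and 1.46 and 1.43 in those labelled FLAG-dbf4-aaHH.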

How the data were processed

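QBU was read in 20 IP and 20 Total libraries of 10 strains, and FLAG ChIP-seq in 4 libraries. The deposited QBU files hold raw counts of reads per 50-bp bin, which the authors made with Bowtie2, SAMtools and bedtools according to the submitters' processing notes, without scaling. A read is counted in every bin it overlaps, so sums over bins exceed the number of reads. The deposited ChIP-seq files list aligned read ends with a mapping quality score from 1 to 42, and read ends were counted here in the same windows, with reads outside the ribosomal DNA as library size. Versions and genome build are not given in the sources used here.

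Each library was divided by its mean bin, the 20 IP profiles were averaged, and maxima of the 1-kb running median above 2 times the mean and at least 5 kb apart were called as origins. The smoothing was settled after the profiles were seen. Of 172 maxima, 3 in the ribosomal DNA and 16 without a full 500-bp window were dropped, which left 153. Counts per window were tested with edgeR 4.0.16 (quasi-likelihood, all strains in 1 fit, library size from all bins, adjusted p under 0.05 over 153 origins) and arm ratios of 16 chromosomes with limma 3.58.1, both checked on simulated data. Alternatives were TMM factors, DESeq2, other windows, peak lists, filters, library sizes and arm limits, a replicate block and leaving out each replicate. Values per replicate are given for the peak nearest the centromere and the highest and lowest WT peak on each arm, the largest called rise and fall in each contrast and the peaks called in most and fewest contrasts. The members and lists were chosen with earlier results of these data known. No source says that replicates are separate cultures, so p-values measure the spread between these samples, which may be technical. Genome sequence was not used here, and no sequence is shown.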

Additional observations from a re-analysis of the deposited data

Results flagged for a closer look

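In 12 cases the effect of 1 genotype change differed between 2 backgrounds by an interaction test (edgeR over all 153 origins, called with library totals and with TMM factors), given here as differences of log2 fold changes. The fkh1∆ effect in dbf4-Zn*1 minus that in WT was 1.16 (SE 0.26) at L42, 1.34 (SE 0.31) at R34, 1.70 (SE 0.38) at R56, 1.36 (SE 0.31) at R428 and -0.69 (SE 0.19) at R105, beside a genome median of 0.49 and 27.5% of origins called, largest adjusted p = 0.0040. In dbf4-Zn*2 minus WT it was 1.22 (SE 0.26) at L42, 1.47 (SE 0.31) at R34, 1.71 (SE 0.37) at R56, 1.48 (SE 0.30) at R428 and -0.49 (SE 0.19) at R105 (median 0.65, 29.4% called, largest adjusted p = 0.030). Both comparisons share the WT and fkh1∆ libraries. R34 and R428 were lower in fkh1∆ than in WT, and between the zinc finger mutants and their fkh1∆ derivatives R34 was not called and R428 was lower by less. The fkh1∆ fkh2-dsm effect in ctf19∆ minus that in WT was 1.61 (SE 0.28) at L42 and 1.94 (SE 0.33) at R568 (median 0.87, 13.7% called, largest adjusted p = 4.8e-05).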

How the results depend on the processing

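Of the 108 log2 fold changes of the 12 peaks in IP of the 9 mutants against WT, 38 changed sign with TMM factors and 48 with DESeq2, 27 and 37 of them called with library totals. The cause of each change below was not tested. The counts below are over all 12 peaks, L237 and R1013 included, unless another peak list is named. With TMM factors the number of arm peaks lower in IP was 2 in fkh1∆ fkh2-dsm against fkh1∆, fkh1∆ dbf4-Zn*2 against dbf4-Zn*2, fkh1∆ and ctf19∆, 3 in the triple mutant, 4 in fkh1∆ dbf4-Zn*1, fkh1∆ fkh2-dsm and dbf4∆C, 5 in fkh1∆ dbf4-Zn*2, and the number higher was 1 in ctf19∆, 3 in fkh1∆ dbf4-Zn*2, fkh1∆ dbf4-Zn*1, fkh1∆ and dbf4∆C, 4 in fkh1∆ fkh2-dsm against fkh1∆, fkh1∆ fkh2-dsm, dbf4-Zn*2 and dbf4-Zn*1, 6 in the triple mutant. With DESeq2 1.42.0 the number lower was 1 in ctf19∆, 2 in fkh1∆ fkh2-dsm against fkh1∆, the triple mutant and fkh1∆, 3 in fkh1∆ fkh2-dsm, 4 in fkh1∆ dbf4-Zn*2, fkh1∆ dbf4-Zn*1 and dbf4∆C, 5 in dbf4-Zn*2, and the number higher was 3 in fkh1∆ dbf4-Zn*2 and fkh1∆ dbf4-Zn*1, 4 in fkh1∆ fkh2-dsm against fkh1∆, fkh1∆ fkh2-dsm, fkh1∆, dbf4-Zn*2 and dbf4-Zn*1, 5 in dbf4∆C, 6 in ctf19∆, 9 in the triple mutant. In Total, TMM factors gave 0 in the triple mutant, fkh1∆ fkh2-dsm, fkh1∆, dbf4-Zn*2, dbf4-Zn*1 and dbf4∆C, 1 in fkh1∆ dbf4-Zn*1 lower and 2 in fkh1∆ fkh2-dsm higher, and DESeq2 gave 0 in fkh1∆ dbf4-Zn*1, the triple mutant, fkh1∆ fkh2-dsm, fkh1∆, dbf4-Zn*2, dbf4-Zn*1 and dbf4∆C lower and 1 in ctf19∆ and dbf4-Zn*1, 2 in fkh1∆ dbf4-Zn*1 and fkh1∆ fkh2-dsm higher. Among the peaks singled out in each contrast, those that turned from lower to higher had these log2 fold changes: with TMM factors, in dbf4∆C R105 0.61, R463 0.74 and R1013 0.91, in dbf4-Zn*1 R716 0.57, in dbf4-Zn*2 R716 0.56, in fkh1∆ dbf4-Zn*1 R105 0.0080, R709 0.052 and R716 0.35, in fkh1∆ dbf4-Zn*2 R105 0.051; with DESeq2, in dbf4∆C R105 0.93, R463 1.05 and R1013 1.25, in dbf4-Zn*1 R716 0.87, in dbf4-Zn*2 R716 0.86, in fkh1∆ fkh2-dsm R716 0.032, in fkh1∆ dbf4-Zn*1 R105 0.20, R709 0.24 and R716 0.55, in fkh1∆ dbf4-Zn*2 R105 0.19 and R709 0.013. With the Total library of the same replicate as library size, no arm peak was called in any of the 14 contrasts by edgeR (lower 0 in the triple mutant against ctf19∆, fkh1∆ fkh2-dsm against fkh1∆, fkh1∆ dbf4-Zn*2 against dbf4-Zn*2, fkh1∆ dbf4-Zn*1 against dbf4-Zn*1, fkh1∆ dbf4-Zn*2, fkh1∆ dbf4-Zn*1, the triple mutant, fkh1∆ fkh2-dsm, fkh1∆, ctf19∆, dbf4-Zn*2, dbf4-Zn*1 and dbf4∆C; higher 0 in the triple mutant against ctf19∆, fkh1∆ fkh2-dsm against fkh1∆, fkh1∆ dbf4-Zn*2 against dbf4-Zn*2, fkh1∆ dbf4-Zn*1 against dbf4-Zn*1, fkh1∆ dbf4-Zn*2, fkh1∆ dbf4-Zn*1, the triple mutant, fkh1∆ fkh2-dsm and fkh1∆), with at most 2 at an unadjusted p under 0.05. The ratio of IP to Total reads differed between replicates of a strain by 1.02 to 9.22 times. Dividing IP by Total in each window gave 2 in fkh1∆ lower and 0 in fkh1∆ dbf4-Zn*2 and fkh1∆ dbf4-Zn*1, 2 in fkh1∆ dbf4-Zn*2 against dbf4-Zn*2 and fkh1∆ dbf4-Zn*1 against dbf4-Zn*1 higher, and R463 turned lower (in fkh1∆ dbf4-Zn*1 R463 -0.41, in fkh1∆ dbf4-Zn*2 R463 -0.33, in fkh1∆ dbf4-Zn*1 against dbf4-Zn*1 R463 -0.27, in fkh1∆ dbf4-Zn*2 against dbf4-Zn*2 R463 -0.19). With peaks of at least 3 times the mean the number lower was 5 in dbf4-Zn*2 and dbf4-Zn*1, 7 in fkh1∆ dbf4-Zn*1 and the number higher 0 in fkh1∆ fkh2-dsm against fkh1∆, the triple mutant, fkh1∆ fkh2-dsm and fkh1∆, 2 in fkh1∆ dbf4-Zn*2 against dbf4-Zn*2 and fkh1∆ dbf4-Zn*1 against dbf4-Zn*1, 3 in the triple mutant against ctf19∆. With peaks called without smoothing, an alternative chosen after seeing the data that has 28 arm peaks, the number lower was 7 in fkh1∆ dbf4-Zn*2 against dbf4-Zn*2, 19 in fkh1∆ dbf4-Zn*2, 21 in fkh1∆ dbf4-Zn*1 and the number higher 1 in ctf19∆, 2 in fkh1∆ dbf4-Zn*1, fkh1∆, dbf4-Zn*2, dbf4-Zn*1 and dbf4∆C, 5 in the triple mutant, 6 in fkh1∆ fkh2-dsm against fkh1∆ and fkh1∆ fkh2-dsm. With 1000-bp windows the number higher in IP was 2 in fkh1∆, and the number lower in Total was 0 in the triple mutant, 2 in fkh1∆ dbf4-Zn*2, fkh1∆ and dbf4-Zn*2, 7 in dbf4∆C. With the replicate number as a block the number lower in Total was 2 in fkh1∆, and no other call count moved by over 1.5 times. Same-numbered replicates of the 45 pairs of strains deviated together little (correlations of -0.19 to 0.18, median -0.019, 5 over 0.1), so the numbers were not taken to pair the samples. Leaving out each replicate in turn moved some counts. For peaks higher in IP the range was 0 to 1 in fkh1∆ dbf4-Zn*1, 0 to 1 in fkh1∆ dbf4-Zn*2 and 2 to 4 in fkh1∆ dbf4-Zn*1 against dbf4-Zn*1. For peaks lower in IP the range was 2 to 4 in fkh1∆ fkh2-dsm against fkh1∆. For peaks lower in Total the range was 0 to 4 in dbf4∆C, 0 to 1 in dbf4-Zn*1, 0 to 1 in dbf4-Zn*2, 0 to 2 in fkh1∆, 0 to 0 in fkh1∆ fkh2-dsm, 0 to 0 in the triple mutant, 0 to 1 in fkh1∆ dbf4-Zn*1 and 0 to 0 in fkh1∆ dbf4-Zn*2. For peaks higher in Total the range was 0 to 1 in fkh1∆ fkh2-dsm and 0 to 1 in the triple mutant. For left to right arm ratio the range was 0.0057 to 0.19 in dbf4-Zn*2 against dbf4-Zn*1. For left arm total the range was 0.087 to 0.14 in fkh1∆. The log2 arm ratio with the median 1-kb bin was 0.0061 in dbf4-Zn*1, -0.085 in dbf4-Zn*2, -0.021 in fkh1∆ fkh2-dsm, 0.048 in the triple mutant, 0.030 in fkh1∆ dbf4-Zn*1, 0.034 in fkh1∆ dbf4-Zn*2, 0.023 in fkh1∆ dbf4-Zn*1 against dbf4-Zn*1, -0.13 in fkh1∆ fkh2-dsm against fkh1∆ and -0.024 in the triple mutant against ctf19∆, and with arms cut further in it was 0.20 in ctf19∆, now past the threshold. The left arm total was -0.33 in dbf4∆C and -0.080 in fkh1∆ dbf4-Zn*2 with TMM factors and -0.27 in dbf4∆C, 0.084 in ctf19∆, -0.038 in fkh1∆ dbf4-Zn*1 and 0.0037 in fkh1∆ dbf4-Zn*2 with DESeq2, and the right arm total -0.0070 in ctf19∆ and 0.15 in fkh1∆ with TMM factors and -0.024 in ctf19∆ and 0.18 in fkh1∆ with DESeq2. The low-count filter and the ChIP-seq alternatives changed no call count by over 1.5 times. Depth limits the fkh1∆ fkh2-dsm strain most, where single windows held as few as 13 bin counts in IP and 10 in Total, and 2 replicates per strain limit all tests.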

Other observations

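The Total signal over the 10 kb around R463 was 2.33 to 2.42 times the median 1-kb level of the arms in the 4 libraries of fkh1∆ dbf4-Zn*1 and fkh1∆ dbf4-Zn*2, and 1.07 to 1.74 times in the other 16. The groups do not overlap. The locus R68, at chrIV:518001-518500 and outside the 12, had a peak of its own in 6 strains, with 2.41 and 2.32 times the genome mean in dbf4-Zn*1, 2.16 and 2.20 in dbf4-Zn*2 and 1.06 and 1.76 in WT. In dbf4∆C, 6 of the 7 loci called outside the 12 were called in no other strain (R86, R447, R457, R479, R697 and R739). All 7 lay on the right arm, and R447, R457 and R479 lay around R463. The signal there was not particular to dbf4∆C: R457 had 5.56 and 4.88 times the mean in that strain, 8.36 and 7.81 in dbf4-Zn*1 and 13.8 and 14.1 in fkh1∆ dbf4-Zn*1, and R447 had 5.56 and 5.44, 0.697 and 0.677 and 3.37 and 3.26. These loci were named after their values were seen and were not tested.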
